A study of Mus musculus with 10 samples.

Results

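Milk protein and milk fat genes were followed through 5 populations of mammary cells sorted from virgin glands, before any pregnancy had started milk production. The genes were chosen by name, as the probe sets whose only gene symbol was one of 13 listed milk genes. Of these, 7 genes were measured, by 9 of the 3663 probe sets in the table. They were the caseins Csn2, Csn1s1, Csn1s2a and Csn3, the lactose synthesis gene Lalba, and the milk fat genes Btn1a1 and Xdh. Csn1s2b, Wap, Glycam1, Olah, Spp1 and Lpo were not analysed here. Btn1a1 had 3 probe sets, which were averaged, and each other gene had 1.

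All populations came from the mammary epithelium of virgin FVB females aged 6 to 8 weeks, with no transgene and no treatment named, and each had 2 arrays. Cells that carried the leukocyte marker CD45, the endothelial marker CD31 or the erythroid marker Ter119 were stained for exclusion, and the cells left over went through a double sort by CD24, CD49f and Thy-1. The luminal populations were CD24highCD49fmed, which the study takes for luminal progenitors, and CD24medCD49f-/low, which it calls luminal cells. The basal populations were CD24medCD49fmed, taken for myoepithelial cells, Thy-1+CD24medCD49fhigh, in which the study places the stem cells, and Thy-1-CD24medCD49fhigh. The text of the study names a CD24lowCD49fmed gate where the labels have CD24medCD49fmed. Whether the 2 arrays of a population hold cells of different animals is not stated, and p-values then reflect no more than the spread between these samples, which may be technical.

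Caseins are the main proteins of milk and are packed into micelles that carry calcium and phosphate to the young. Alveolar luminal cells make them during pregnancy and lactation, when prolactin acts through the kinase JAK2 and the transcription factor STAT5 together with glucocorticoids. Milk fat leaves the same cells as droplets wrapped in apical membrane, and alpha-lactalbumin switches a Golgi enzyme to the synthesis of lactose.

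Values are log2 intensities that were centred on a mean of 0 over the arrays for each probe set, so that a value gives a gene's level relative to its own mean and not its abundance. Only probe sets that varied at least 4-fold between arrays were kept, so each gene shown here had varied before any comparison was made. As a check of the sort, all 12 basal markers were lower in luminal arrays and 8 of 12 luminal markers were higher, among them Prom1 (3.11 ± 0.47) and Kit (2.16 ± 0.36). Of all features, 34.7% were called lower and 41.3% higher. The remaining 4 luminal markers had differences between 0.63 and 1.22 and were not called. The 2 CD24highCD49fmed arrays had a correlation of 0.915 over all features. The other pairs were less alike, with 0.641 in CD24medCD49fmed, 0.626 in Thy-1-CD24medCD49fhigh, 0.43 in Thy-1+CD24medCD49fhigh and 0.291 in CD24medCD49f-/low. The last population had the arrays that stood farthest apart, and results of the milk genes that rest on it are given without each of them where the call changes.

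Luminal cells were set against basal cells to ask which milk genes differ between the lineages already in the virgin gland. Btn1a1, Lalba, Csn3 and Xdh were higher in luminal than in basal populations, by 2.42-fold to 5.07-fold, whereas Csn2, Csn1s1 and Csn1s2a did not pass the test. limma called 4 of the 7 milk genes higher and 0 lower, in a table where 41.3% of all 2932 features were called higher and 76.0% were called in either direction. The median log2 difference was 1.27 over the 7 milk genes and 0.11 over all features. In bulk populations, fewer cells of a type and less RNA per cell cannot be told apart.

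**Figure D1:**
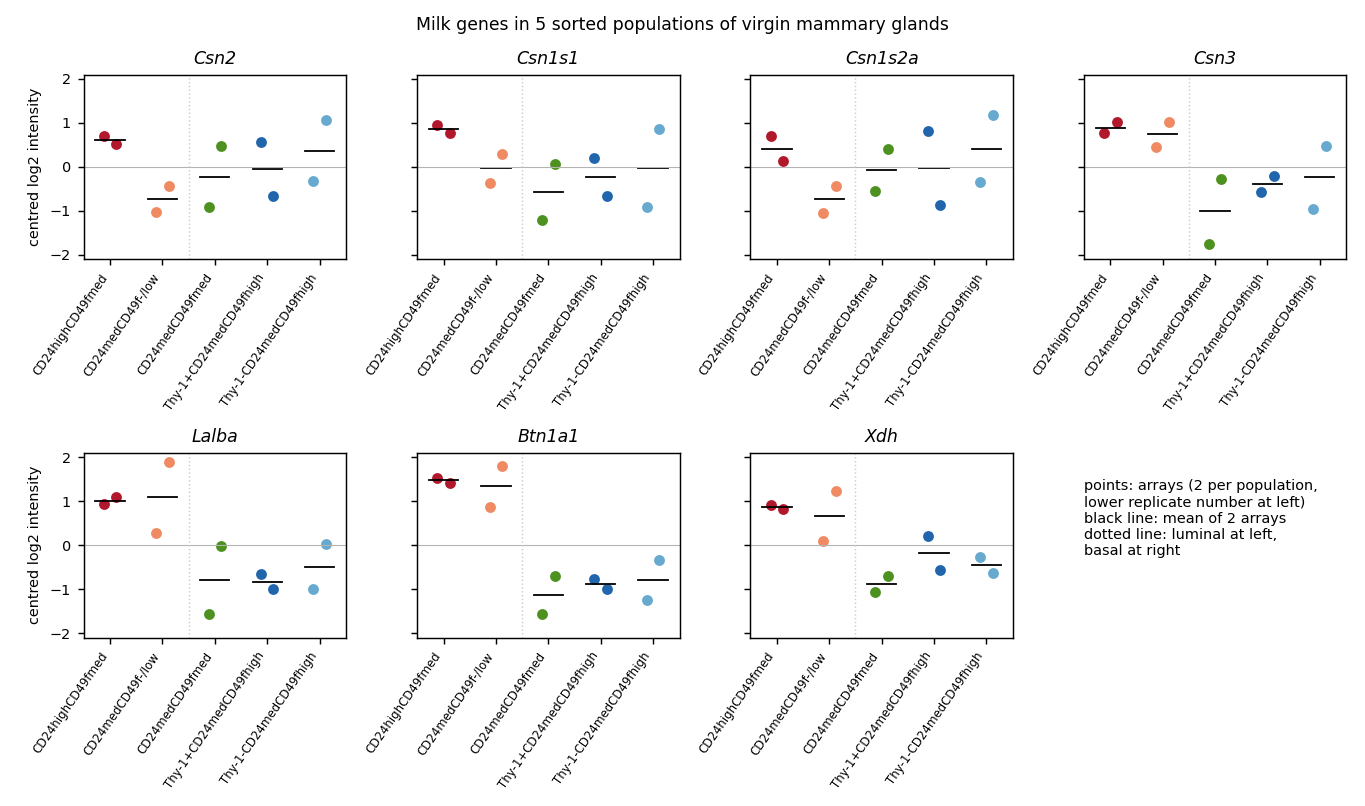
Centred log2 intensity (vertical axis) of the 7 milk genes in each of 5 sorted populations (horizontal axis), with 1 point per array and a black line at the mean of 2 arrays; the 2 luminal populations stand left of the dotted line. Btn1a1 and Lalba are above every basal array in all luminal arrays, while Csn2 and Csn1s2a have their lowest population mean in CD24medCD49f-/low cells (-0.72 and -0.74).

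Btn1a1 encodes butyrophilin, a membrane protein of the milk fat globule that is needed for the secretion of fat droplets. Averaged over its probe sets, it stood at 1.53 and 1.41 in CD24highCD49fmed cells and at 0.87 and 1.80 in CD24medCD49f-/low cells, against -1.57 and -0.70 in CD24medCD49fmed cells, -0.78 and -0.99 in Thy-1+CD24medCD49fhigh cells and -1.25 and -0.33 in Thy-1-CD24medCD49fhigh cells. All 4 luminal arrays were above all 6 basal arrays, an order found upward in 23.8% of features. The difference was 2.34 ± 0.35 on the log2 scale (SE, 4 luminal and 6 basal arrays, adjusted p = 1.09e-05 by limma), the largest among the milk genes. Probe set 1451824_at gave 2.73 ± 0.35, 1425754_a_at 2.16 ± 0.38 and 1419175_a_at 2.13 ± 0.36, so the 3 probe sets of the gene had the same direction and each passed the test. They differed in CD24medCD49f-/low cells, where 1425754_a_at read 0.26 and 2.25 in the 2 arrays and 1419175_a_at read 1.27 and 1.16.

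Xdh encodes xanthine dehydrogenase, an enzyme of purine breakdown that binds butyrophilin at the apical membrane and takes part in the release of fat droplets. It stood at 0.91 and 0.83 in CD24highCD49fmed cells and at 0.09 and 1.24 in CD24medCD49f-/low cells, against -1.07 and -0.70 in CD24medCD49fmed cells, 0.21 and -0.57 in Thy-1+CD24medCD49fhigh cells and -0.28 and -0.64 in Thy-1-CD24medCD49fhigh cells. The sides overlapped, since CD24medCD49f-/low replicate 1 was below Thy-1+CD24medCD49fhigh replicate 1. The difference was 1.27 ± 0.34 (SE, adjusted p = 0.00288 by limma).

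Lalba encodes alpha-lactalbumin, the milk protein that forms lactose synthase with a galactosyltransferase. Its values were 0.93 and 1.10 in CD24highCD49fmed cells and 0.29 and 1.89 in CD24medCD49f-/low cells, against -1.57 and -0.01 in CD24medCD49fmed cells, -0.65 and -1.004 in Thy-1+CD24medCD49fhigh cells and -1.01 and 0.03 in Thy-1-CD24medCD49fhigh cells. Every luminal array was above every basal array, by a narrow margin for CD24medCD49f-/low replicate 1. The difference was 1.75 ± 0.40 (SE, adjusted p = 7.38e-04 by limma).

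Csn3 encodes kappa-casein, the casein that covers the micelle and keeps it in solution. It read 0.76 and 1.01 in CD24highCD49fmed cells and 0.45 and 1.02 in CD24medCD49f-/low cells, against -1.76 and -0.27 in CD24medCD49fmed cells, -0.56 and -0.20 in Thy-1+CD24medCD49fhigh cells and -0.95 and 0.48 in Thy-1-CD24medCD49fhigh cells. Thy-1-CD24medCD49fhigh replicate 2 was just above the lowest luminal array, and the other 5 basal arrays lay below all luminal ones. The difference was 1.35 ± 0.38 (SE, adjusted p = 0.00365 by limma).

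The other caseins were arranged in another way. Csn2, which encodes beta-casein, read 0.70 and 0.53 in CD24highCD49fmed cells and -1.02 and -0.43 in CD24medCD49f-/low cells, against -0.91 and 0.47 in CD24medCD49fmed cells, 0.58 and -0.66 in Thy-1+CD24medCD49fhigh cells and -0.32 and 1.07 in Thy-1-CD24medCD49fhigh cells. Its highest array was a basal one and its lowest a luminal one. The luminal minus basal difference of Csn2 was -0.09 ± 0.39, with a 95% interval from -0.90 to 0.72 (adjusted p = 0.83 by limma). The probe set of Csn2 is of the kind whose probes can match several transcripts.

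Csn1s2a, an alpha-S2-type casein gene, had values of 0.70 and 0.13 in CD24highCD49fmed cells and -1.04 and -0.43 in CD24medCD49f-/low cells, against -0.54 and 0.41 in CD24medCD49fmed cells, 0.81 and -0.86 in Thy-1+CD24medCD49fhigh cells and -0.35 and 1.18 in Thy-1-CD24medCD49fhigh cells. Each basal population held 1 array above and 1 array below 0, and the difference was -0.27 ± 0.40, with a 95% interval from -1.11 to 0.57 (adjusted p = 0.534 by limma). Csn1s1, the alpha-S1-casein gene, read 0.96 and 0.78 in CD24highCD49fmed cells and -0.36 and 0.30 in CD24medCD49f-/low cells, against -1.22 and 0.06 in CD24medCD49fmed cells, 0.20 and -0.67 in Thy-1+CD24medCD49fhigh cells and -0.92 and 0.87 in Thy-1-CD24medCD49fhigh cells. Both CD24highCD49fmed arrays were near the top of its range, and the difference was 0.70 ± 0.39 (adjusted p = 0.11 by limma). Csn1s1 was called only without Thy-1-CD24medCD49fhigh replicate 2 (1.00, adjusted p = 0.0335) and with a replicate block (0.97, adjusted p = 0.0314).

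Csn1s1, Csn2 and Csn1s2a lie next to each other on mouse chromosome 5, with 0 protein-coding genes between neighbours in the RefSeq annotation. Csn1s2b follows, and then 3 other protein-coding genes before Csn3. Lalba lies on chromosome 15, Btn1a1 on chromosome 13 and Xdh on chromosome 17. Promoter windows from RefSeq (GRCm38.p6, 250 bases before to 50 from the transcription start) matched 4 of the 7 measured genes. These windows are all shown, and none was available for the other measured milk genes. Over the arrays, Csn2 and Csn1s2a varied closely together and Lalba did not vary closely with either, while Csn1s1 was correlated with all 3. Whether promoter letters relate to this was not tested. Capitals mark the palindrome TTCNNNGAA, the letters of a STAT5 site, on the strand of the gene.
Csn2, chr5:87699376-87699675, - strand: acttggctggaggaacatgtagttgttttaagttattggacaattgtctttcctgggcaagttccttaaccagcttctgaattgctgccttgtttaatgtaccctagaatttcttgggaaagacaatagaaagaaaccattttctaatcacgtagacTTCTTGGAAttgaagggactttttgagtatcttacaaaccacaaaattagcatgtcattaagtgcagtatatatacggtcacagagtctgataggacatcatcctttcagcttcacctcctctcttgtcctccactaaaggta
Csn1s1, chr5:87665958-87666257, + strand: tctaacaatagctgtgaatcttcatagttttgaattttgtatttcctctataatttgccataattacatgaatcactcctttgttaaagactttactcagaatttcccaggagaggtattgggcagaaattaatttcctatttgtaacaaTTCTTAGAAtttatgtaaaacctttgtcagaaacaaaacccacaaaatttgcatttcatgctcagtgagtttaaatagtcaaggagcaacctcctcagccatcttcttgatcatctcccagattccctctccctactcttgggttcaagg
Csn1s2a, chr5:87774200-87774499, + strand: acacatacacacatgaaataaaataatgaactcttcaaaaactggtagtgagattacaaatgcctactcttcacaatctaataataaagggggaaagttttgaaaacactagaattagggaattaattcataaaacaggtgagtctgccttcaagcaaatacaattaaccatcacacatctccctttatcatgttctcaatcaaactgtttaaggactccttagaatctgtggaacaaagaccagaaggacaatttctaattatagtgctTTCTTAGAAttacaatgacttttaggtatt
Lalba, chr15:98482634-98482933, - strand: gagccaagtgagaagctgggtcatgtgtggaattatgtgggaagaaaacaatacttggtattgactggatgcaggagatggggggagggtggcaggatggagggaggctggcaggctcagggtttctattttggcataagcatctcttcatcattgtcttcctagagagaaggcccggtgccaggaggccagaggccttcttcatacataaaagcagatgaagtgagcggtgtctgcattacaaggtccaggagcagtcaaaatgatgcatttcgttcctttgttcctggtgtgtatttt

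The palindrome was found in 3 of these 4 windows. Its first base lay at -93 in Csn2, at -100 in Csn1s1 and at 21 in Csn1s2a, counted from 1 at the first transcribed base with no position 0. In Csn1s1 and Csn1s2a the match was TTCTTAGAA and in Csn2 it was TTCTTGGAA. Of all 32851 windows of this length, 8.30% held it. The C/EBP-like letters TTGCNNAA, searched on both strands, were in 0 of the 4 windows and in 10.8% of all windows. The glucocorticoid receptor letters TGTTCT, also searched on both strands, was found once, at -59 in Csn1s2a, where it did not overlap the palindrome, and in 19.0% of all windows. A match is a description of these letters and does not show that a factor bound there.

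Csn2 and Csn1s2a had a correlation of 0.96 over the 10 arrays, and Csn1s1 had one of 0.818 with Csn2 and 0.723 with Csn1s2a. Csn3 had correlations of 0.915 with Lalba, 0.903 with Btn1a1, 0.807 with Csn1s1 and 0.752 with Xdh, above those with Csn2 (0.369) and Csn1s2a (0.195). Lalba and Btn1a1 had a correlation of 0.952. Csn1s1 also had 0.745 with Lalba. These values describe 10 arrays in pairs from the same populations, normalised together, and no p is attached to them.

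**Figure D2:**
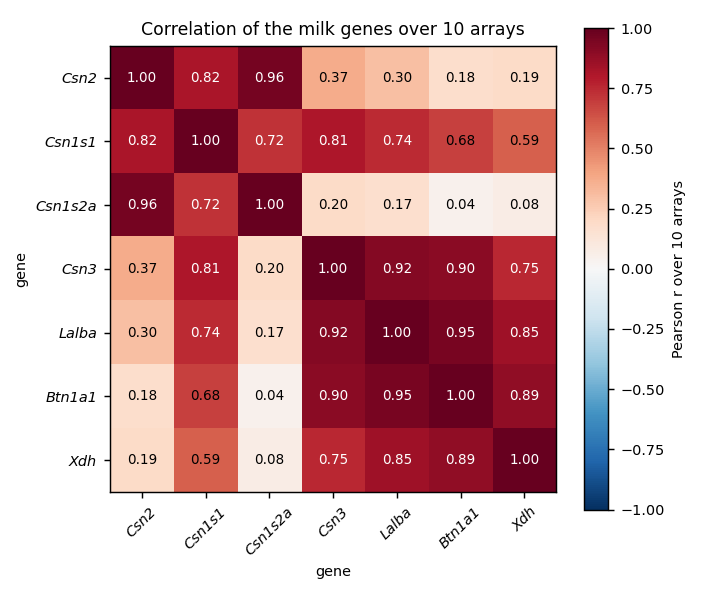
Pearson correlation over 10 arrays for each pair of the 7 milk genes, with genes on both axes and colour from -1 (blue) to 1 (red). Csn2 and Csn1s2a form 1 close pair (0.96) and Csn3, Lalba, Btn1a1 and Xdh a separate block (0.752 to 0.952), with Csn1s1 correlated with both.

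When the mean of each population was taken away, the deviations of the single arrays still moved together for the genes other than Xdh, with correlations between 0.564 and 0.974. With 2 arrays per population the deviations are equal and opposite, so each population gives 1 independent value. Such correlations were not computed for genes other than the milk genes. The correlation of these deviations was 0.974 for Csn1s1 with Csn2, 0.959 for Csn2 with Csn1s2a and 0.971 for Lalba with Btn1a1, and 0.869 for Csn2 with Btn1a1, against 0.176 for this pair before the population means were taken away. Xdh followed the others less, at 0.118 with Csn3, against 0.752 before, and at 0.35 to 0.624 with the other milk genes. The arrays of a population thus differed in the same direction for most milk genes. All 7 genes were higher in replicate 2 of CD24medCD49f-/low and in replicate 3 of CD24medCD49fmed, and 6 of 7 were higher in replicate 1 of Thy-1+CD24medCD49fhigh and in replicate 2 of Thy-1-CD24medCD49fhigh. In CD24highCD49fmed, replicate 1 was the higher array for 5 of 7. The median of all features was -0.323 and -0.0314 in replicates 1 and 2 of CD24medCD49f-/low, and -0.295 and 0.0465 in those of Thy-1-CD24medCD49fhigh. It was also slightly higher in replicate 3 of CD24medCD49fmed and replicate 1 of Thy-1+CD24medCD49fhigh, but not in replicate 1 of CD24highCD49fmed. The part of these medians in the shared direction was not tested.

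**Figure D3:**
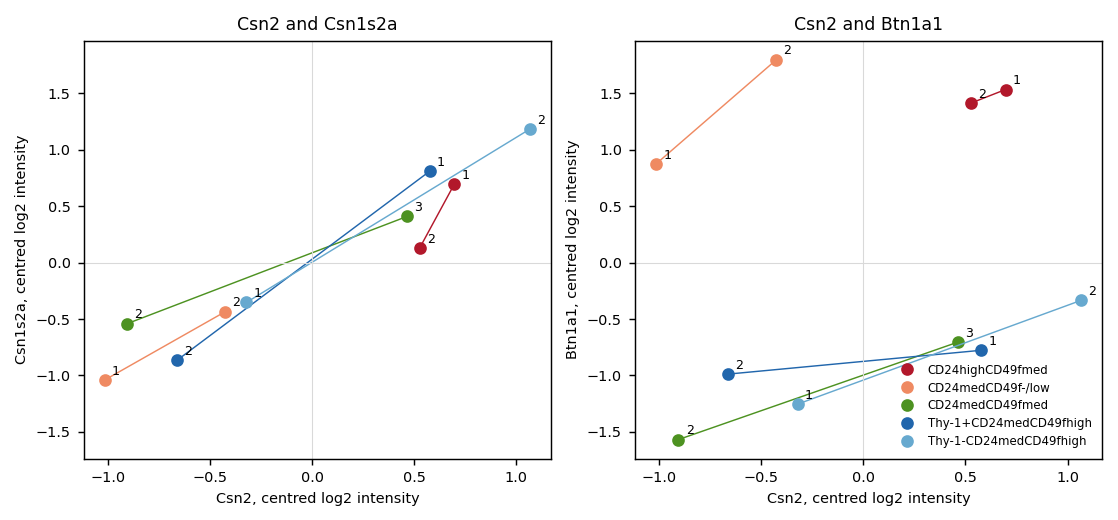
Centred log2 intensity of Csn2 (horizontal axes) against Csn1s2a (left) and Btn1a1 (right), with 1 point per array labelled by its replicate number and a line joining the 2 arrays of a population. On the left the arrays lie along 1 line whatever the population (0.96), whereas on the right the 4 luminal arrays lie above the 6 basal arrays at low and high Csn2 alike.

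Each luminal population was next compared with the mean of the 3 basal populations, which both comparisons share. In CD24highCD49fmed cells, 5 of the 7 milk genes were called higher and 0 lower, where 44.0% of all features were called higher. The differences were 2.41 ± 0.44 for Btn1a1 (adjusted p = 1.47e-04), 1.72 ± 0.50 for Lalba (adjusted p = 0.00513), 1.43 ± 0.48 for Csn3 (adjusted p = 0.0114), 1.38 ± 0.43 for Xdh (adjusted p = 0.00822) and 1.15 ± 0.50 for Csn1s1 (adjusted p = 0.0432, all by limma). Csn2 (0.57 ± 0.49) and Csn1s2a (0.30 ± 0.51) were not called. Both CD24highCD49fmed arrays were above all basal arrays for Btn1a1, Lalba, Csn3 and Xdh, as in 44.5% of features, while Csn1s1 was as high in Thy-1-CD24medCD49fhigh replicate 2 as in CD24highCD49fmed cells. The call of Csn1s1 was lost after quantile normalisation (0.81, adjusted p = 0.172). It was also lost without CD24highCD49fmed replicate 1 or 2, with adjusted p-values of 0.191 and 0.119, and with CD24medCD49fmed replicate 2 (0.101), Thy-1+CD24medCD49fhigh replicate 2 (0.11) or Thy-1-CD24medCD49fhigh replicate 1 (0.124) left out, where its difference lay between 0.85 and 1.23. Without CD24highCD49fmed replicate 1 or 2 the calls of Csn3 (adjusted p = 0.0626 and 0.0932) and Xdh (adjusted p = 0.0865 and 0.0601) were lost too, and Csn3 was also not called after quantile normalisation (1.07, adjusted p = 0.0509).

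In CD24medCD49f-/low cells, 4 of the 7 were called higher than in basal cells and 0 lower, where 18.3% of all features were called higher. Btn1a1 was higher by 2.27 ± 0.44 (adjusted p = 4.58e-04), Lalba by 1.79 ± 0.50 (adjusted p = 0.00749), Csn3 by 1.28 ± 0.48 (adjusted p = 0.0347) and Xdh by 1.17 ± 0.43 (adjusted p = 0.0335, all by limma). The other caseins gave 0.25 ± 0.50 for Csn1s1, -0.76 ± 0.49 for Csn2 and -0.85 ± 0.51 for Csn1s2a and were not called (adjusted p = 0.664, 0.192 and 0.163). Without CD24medCD49f-/low replicate 2, the array in which Lalba, Xdh and Btn1a1 were highest, only Btn1a1 was called, Lalba had a difference of 0.99 (adjusted p = 0.112), Csn3 0.99 (adjusted p = 0.121) and Xdh 0.60 (adjusted p = 0.267). Csn3 was also not called without CD24medCD49fmed replicate 2 (adjusted p = 0.0918), Thy-1+CD24medCD49fhigh replicate 1 (0.0835) or 2 (0.0521), or Thy-1-CD24medCD49fhigh replicate 1 (0.0954), and Xdh was not called without CD24highCD49fmed replicate 1 or 2 (0.0538 for each), CD24medCD49fmed replicate 2 (0.0697), Thy-1+CD24medCD49fhigh replicate 2 (0.0605) or Thy-1-CD24medCD49fhigh replicate 2 (0.06).

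**Figure D4:**
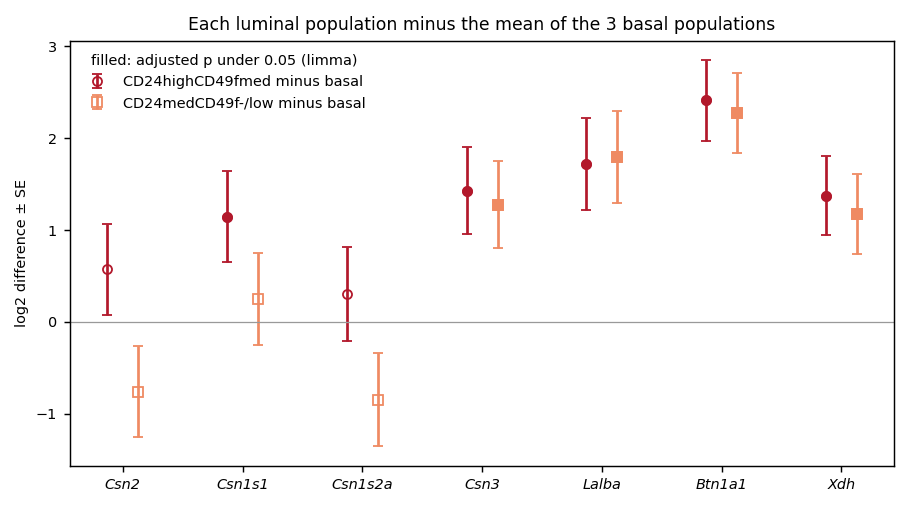
Log2 difference (vertical axis) of each luminal population from the mean of the 3 basal populations for the 7 milk genes (horizontal axis), with bars of 1 SE and filled symbols for an adjusted p under 0.05 by limma. Csn3, Lalba, Btn1a1 and Xdh are above 0 by more than their SE in both luminal populations, and Csn2 and Csn1s2a are above 0 in CD24highCD49fmed cells (0.57 and 0.30) and below it in CD24medCD49f-/low cells (-0.76 and -0.85).

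The luminal populations were then set against each other directly. None of the 7 milk genes was called between CD24highCD49fmed and CD24medCD49f-/low cells by limma, which called 0.205% of features. At an unadjusted p under 0.05 there was 1 milk gene, Csn2, beside 451 of all 2932 features. Csn2 was higher in both CD24highCD49fmed arrays than in both CD24medCD49f-/low arrays, by 1.33 ± 0.60 (95% interval 0.08 to 2.59, unadjusted p = 0.0385, adjusted p = 0.283). The arrays of Csn1s2a (1.15 ± 0.62) and Csn1s1 (0.90 ± 0.61) were also separated, an order found upward in 37.6% of features, and the median of all features was itself 0.35 higher in CD24highCD49fmed cells. With array medians set to 0 the Csn2 difference was 0.96, and after quantile normalisation it was 0.67. Btn1a1 (0.14 ± 0.54, 95% interval -0.98 to 1.26), Csn3 (0.15 ± 0.59), Xdh (0.20 ± 0.53) and Lalba (-0.07 ± 0.61) had arrays that overlapped. The intervals of these 3 genes were -1.06 to 1.37 for Csn3, -0.90 to 1.31 for Xdh and -1.35 to 1.20 for Lalba, and with both scalings the values of Btn1a1, Csn3 and Xdh were below 0.

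Thy-1 splits the CD24medCD49fhigh gate, and this split was the subject of the study. In Thy-1+CD24medCD49fhigh cells set against their Thy-1- counterparts, limma called 0 of the 7 milk genes and 0.0682% of features. At an unadjusted p under 0.05 there were 0 milk genes and 74 of 2932 features. The differences were -0.44 ± 0.62 for Csn1s2a, -0.41 ± 0.60 for Csn2, -0.34 ± 0.61 for Lalba, -0.21 ± 0.61 for Csn1s1, -0.15 ± 0.59 for Csn3, -0.09 ± 0.54 for Btn1a1 and 0.28 ± 0.53 for Xdh. The arrays overlapped for all 7 genes. The 95% interval for Csn2 ran from -1.67 to 0.84, so changes of this size were not detectable with 2 arrays on each side. CD24medCD49fmed cells against the mean of both CD24medCD49fhigh populations also gave 0 called milk genes by limma, where 0.0341% of features were called. At an unadjusted p under 0.05 there were 0 milk genes and 52 of 2932 features. Differences were -0.70 ± 0.51 for Csn3, -0.45 ± 0.53 for Csn1s1, -0.38 ± 0.52 for Csn2, -0.30 ± 0.47 for Btn1a1, -0.26 ± 0.54 for Csn1s2a and -0.13 ± 0.53 for Lalba, and their arrays overlapped. Only for Xdh (-0.56 ± 0.46) were both CD24medCD49fmed arrays below all 4 CD24medCD49fhigh arrays, as in 4.20% of features.

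Over the 5 populations together, the moderated F test of limma called Btn1a1 (adjusted p = 3.68e-04), Lalba (adjusted p = 0.0145), Xdh (adjusted p = 0.0309) and Csn3 (adjusted p = 0.036), in a table where it called 58.4% of features. Csn1s1 (adjusted p = 0.268), Csn2 (adjusted p = 0.281) and Csn1s2a (adjusted p = 0.399) did not pass it. With array weights Csn1s1 passed it as well (adjusted p = 0.0189), and after quantile normalisation Csn3 did not (adjusted p = 0.0556). With 1 array left out, Btn1a1 had an adjusted p of at most 0.00486. Lalba lost its call without Thy-1+CD24medCD49fhigh replicate 1 (0.0522) or 2 (0.0593) or with Thy-1-CD24medCD49fhigh replicate 1 left out (0.0549). Csn3 lost it without either CD24highCD49fmed or either Thy-1+CD24medCD49fhigh array, CD24medCD49fmed replicate 2 or Thy-1-CD24medCD49fhigh replicate 1, with values of up to 0.151. Xdh lost it without any 1 array of CD24highCD49fmed, CD24medCD49fmed or Thy-1-CD24medCD49fhigh, with values of up to 0.142. In the order of the 5 means, CD24highCD49fmed came first for Btn1a1, Csn3, Xdh, Csn1s1 and Csn2, and CD24medCD49f-/low first for Lalba. For Csn1s2a the first was Thy-1-CD24medCD49fhigh (0.416 ± 1.09, SD, n = 2), close to CD24highCD49fmed (0.413 ± 0.40, SD, n = 2). CD24medCD49f-/low was last for Csn2 and Csn1s2a.

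Of the 4 steps between neighbours in each gene's order, 2 steps in all differed beyond their spread. They were the step in Btn1a1 of 2.13 ± 0.54 between CD24medCD49f-/low and Thy-1-CD24medCD49fhigh cells (adjusted p = 0.00666), a pair in which 27.2% of features were called either way, and the step in Lalba of 1.50 ± 0.61 between CD24highCD49fmed and Thy-1-CD24medCD49fhigh cells (adjusted p = 0.0404, both by limma), where 60.0% were called. Both steps lie at the border of the luminal and the basal populations. No step among the basal populations and none within the luminal pair passed the test in any of the 7 genes.

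Luminal markers varied between arrays of the basal populations as well, and milk genes can be read beside them. The median of 12 luminal markers was 0.64 and 1.09 in CD24highCD49fmed cells and 0.43 and 1.70 in CD24medCD49f-/low cells, against -1.87 and 0.03 in CD24medCD49fmed cells, -1.09 and 0.56 in Thy-1+CD24medCD49fhigh cells and -1.31 and -0.27 in Thy-1-CD24medCD49fhigh cells. The array of a population with the higher median of this list was also the higher one for Csn3 in 5 of 5 populations, for Lalba in 4, for Btn1a1, Csn1s1, Csn1s2a and Csn2 in 3 each and for Xdh in 2. How often other features share this order was not computed. Of 14 macrophage and leukocyte markers 1 was measured, Lcp1, which was between 0.56 and 1.30 in luminal arrays and between -1.46 and 0.08 in basal arrays; endothelial markers were not analysed here. Of 10 adipocyte markers 2 were measured, Fabp4 and Lep, and both were lower in luminal cells, with array means between -1.85 and -0.19 in luminal arrays and between -0.08 and 1.53 in basal arrays. Of 10 fibroblast markers 6 were measured and all 6 were lower, like both adipocyte markers, where 34.7% of all features were called lower. Array medians of the fibroblast markers lay between -1.46 and -0.79 in luminal arrays. They were -0.15 and -0.13 in Thy-1-CD24medCD49fhigh arrays and between 0.97 and 1.77 in the other basal arrays. The part of these markers in the differences of milk and other lactation genes was not tested.

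Other genes of lactation were described by lists chosen with earlier results of these data known. Of 36 genes for the synthesis and secretion of milk fat, 13 were measured, 6 were higher and 3 lower in luminal than in basal cells by limma, where 41.3% of all features were higher and 34.7% lower, and their median difference was 0.61. With CD24medCD49f-/low replicate 2 left out both counts rose, as did the calls over all features. Muc15, a mucin of the milk fat globule membrane, was higher by 2.88 ± 0.39, and Lpin1, a phosphatidate phosphatase of triglyceride synthesis, by 1.54 ± 0.33. Vldlr, a lipoprotein receptor, was lower (-1.86 ± 0.34), and so was the fatty acid transporter Cd36 (-1.59 ± 0.37). Cd36 was highest in CD24medCD49fmed replicate 2 (1.71), as was the adipocyte marker Fabp4 (2.39). Lep, the other adipocyte marker measured, read 0.66 there and was highest in Thy-1-CD24medCD49fhigh replicate 1 (1.51). Muc15 stood at 2.43 and 1.97 in CD24highCD49fmed cells and 1.32 and 1.20 in CD24medCD49f-/low cells, against values between -1.93 and 0.27 in basal arrays. It was thus apart from basal cells in every luminal array, as Btn1a1 was.

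Of 22 genes for the transport of ions, nutrients and lactose precursors, 6 were measured, with 3 higher, 1 lower and a median difference of 1.27. Over all features, 41.3% were called higher and 34.7% lower in luminal against basal cells. The iodide transporter Slc5a5 (2.70 ± 0.39), the water channel Aqp5 (2.09 ± 0.39) and the sodium, potassium and chloride cotransporter Slc12a2 (1.74 ± 0.39) were higher in luminal cells. Slc7a5, a transporter of large neutral amino acids, was lower (-2.05 ± 0.32). Of 18 milk defence genes, 6 were measured, 5 were higher and 1 lower, against the same shares of all features, with a median of 1.76. The fewest genes of this list were called higher without CD24medCD49f-/low replicate 2, Thy-1+CD24medCD49fhigh replicate 2 or either Thy-1-CD24medCD49fhigh array. Calls over all features rose without the first of these arrays and fell without the others. Ltf, which encodes the iron-binding protein lactoferrin, was higher by 2.64 ± 0.34, Cd14, a co-receptor for bacterial lipopolysaccharide, by 2.60 ± 0.36 and Wfdc18 by 2.27 ± 0.41. Slpi, an inhibitor of leukocyte proteases, was lower (-2.33 ± 0.38), so that the members of this list did not share 1 direction.

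Of 35 genes of prolactin and progesterone signalling and their transcription factors, 16 were measured, 9 were higher and 5 lower in luminal cells, against 41.3% and 34.7% of all features, with a median of 1.13. The largest differences were in Oxtr, the oxytocin receptor of the contractile basal cells (-3.04 ± 0.35), the epithelial transcription factor Ehf (2.66 ± 0.39), Tph1, which begins serotonin synthesis (2.58 ± 0.36), and Socs3, an inhibitor of cytokine signalling (-2.45 ± 0.50). Socs3 read -3.07 and 0.57 in the CD24medCD49f-/low arrays, and its difference was -1.54 without replicate 1 and -3.36 without replicate 2 of that population. Elf5, a transcription factor of the alveolar lineage, was higher in luminal cells by 2.42 ± 0.37 (adjusted p = 1.50e-05) and Jak2, the kinase bound to the prolactin receptor, by 1.70 ± 0.34 (adjusted p = 2.68e-04). Stat5a, the factor activated by that kinase, differed by 0.45 ± 0.39 and did not pass the test (adjusted p = 0.284). Its values were -0.09 and 0.16 in CD24highCD49fmed cells and -0.65 and 1.68 in CD24medCD49f-/low cells, against -0.51 to 0.30 in basal arrays, so 1 array stood above all others. Without CD24medCD49f-/low replicate 1 Stat5a was called (1.04, adjusted p = 0.00633). The other lactation genes named here for luminal against basal cells kept their calls with any 1 array left out.

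**Figure D5:**
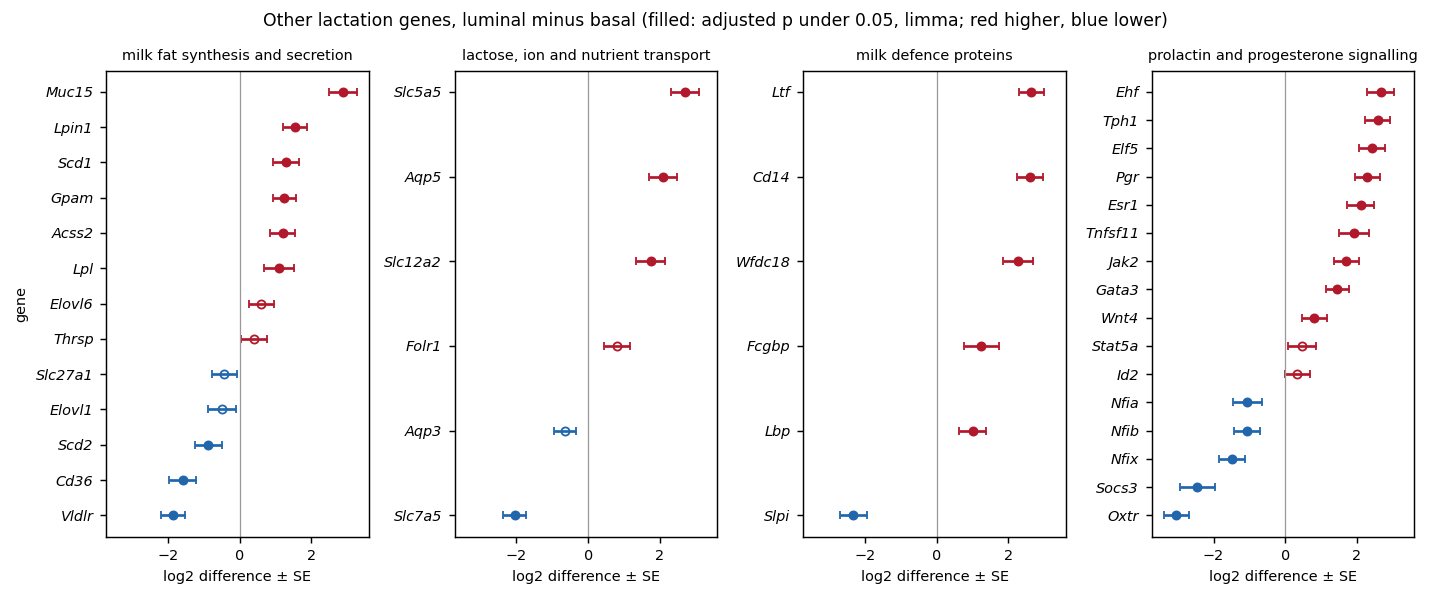
Luminal minus basal log2 difference (horizontal axes, bars of 1 SE) for each measured gene (vertical axes) of 4 lists of lactation genes, with filled points for an adjusted p under 0.05 by limma. Points lie on both sides of 0 in each list, from -3.04 in Oxtr to 2.88 in Muc15.

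In CD24highCD49fmed cells against basal cells, 8 of the 13 milk fat genes were higher and 3 lower, where 44.0% of features were higher and 30.6% lower. Without CD24highCD49fmed replicate 1, which leaves 1 array of that population, both counts fell, and so did the calls over all features. In CD24medCD49f-/low cells 3 of the 13 were higher and 1 lower, against 18.3% and 27.5% of features. Both counts, and the calls over all features, changed with 1 array left out. Lpl, the lipase that frees fatty acids from blood lipoproteins, was among the genes called in CD24highCD49fmed cells (2.00 ± 0.52, adjusted p = 0.00251), though not without CD24highCD49fmed replicate 1 (1.57, adjusted p = 0.0677), and had a difference of 0.21 ± 0.52 in CD24medCD49f-/low cells (adjusted p = 0.722). The direct difference between the luminal populations was 1.79 ± 0.64 for Lpl (adjusted p = 0.21 by limma), which did not pass the test. Over all 10 arrays, no gene of the 4 lists was called in this direct comparison or in either comparison among basal populations. Some genes of the lists were called between the luminal populations once a CD24medCD49f-/low array was left out, but calls over all features rose too. Without replicate 1, CD24highCD49fmed minus CD24medCD49f-/low was -2.07 for Slc27a1, -1.86 for Aqp3, -1.65 for Stat5a, -2.26 for Socs3 and -3.23 for Tnfsf11. Without replicate 2 it was -1.85 for Aqp3 and 2.29 for Id2. Each of these fits rests on 1 array of CD24medCD49f-/low, so they cannot show whether lactation genes stand out from other features. At an unadjusted p under 0.05 there were 3 milk fat, 1 transport, 0 defence and 2 signalling genes between the luminal populations. Of all 2932 features, 451 passed this threshold.

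The pattern of each milk gene over the 10 arrays was also matched to the 2560 named genes with the milk genes left out. Outside the milk genes, Csn3 was most like Wfdc18 (Pearson r = 0.964), Smim22 (0.958) and Elf5 (0.953). Lalba was most like Foxi1 (0.941), Cutal (0.938) and Atp6v1b1 (0.937), Btn1a1 like Clic6 (0.98), Cd14 (0.978) and Sirt5 (0.976), and Xdh like Cgnl1 (0.961), Hp (0.932) and Mrps23 (0.929). The 3 neighbouring caseins had other partners and lower values. Csn2 was most like Cenph (0.856), Zwilch (0.853) and Cdkn3 (0.841), Csn1s2a like Rnf26 (0.827), Cenph (0.792) and Tipin (0.791), and Csn1s1 like Gin1 (0.892), Car2 (0.887) and Cenpk (0.857). Cenph was thus named for both Csn2 and Csn1s2a, and no gene was named for both a casein of that group and Csn3, Lalba, Btn1a1 or Xdh.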

How the data were processed

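Deposited values of 10 Affymetrix mouse genome arrays, 2 for each of 5 sorted populations, were analysed. RNA was extracted with Trizol and labelled in 2 cycles from the 3' end. Per the labels, the authors normalised intensities with RMA or GCRMA (both are named, versions not given), and the deposited table holds log2 values centred on each probe set's mean (largest absolute mean 3e-07). The authors had kept probe sets above a minimum level that differed at least 4-fold between arrays, which leaves out steady genes and makes large differences common. Centring removes abundance, and the number of arrays limits the precision.

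Probe sets were named by the platform annotation, and values were averaged per gene. Of 3663 probe sets, 75 with several symbols and 297 that the annotation does not list were tested alone, giving 2932 features. A mean per population was fitted to all 10 arrays (limma 3.58.1 in R 4.3.3, lmFit and eBayes, 5 residual and 16.5 prior degrees of freedom). Calls were made from two-sided tests where the p adjusted by Benjamini-Hochberg over all features was under 0.05. The method was tested on simulated data. The study used rank products, which permutes ranks over genes and was not run here. Correlations over 10 arrays are descriptions.

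All milk genes measured are named, with up to 4 called genes per other list by size, plus Elf5, Jak2 and Stat5a as background, and the 3 most similar genes each. Slc27a1, Aqp3, Tnfsf11, Id2 and Fabp4 were named after their values were seen. The members and the lists were chosen with earlier results of these data known. Values were recomputed with quantile normalisation, array medians set to 0, array weights, robust moderation, a replicate block, only the arrays compared, single probe sets, a minimum log2 difference of 1 and each array left out in turn.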

Additional observations from a re-analysis of the deposited data

How the results depend on the processing

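Over the alternatives, 684 gene differences kept their direction and their side of the threshold, 27 lost their call, 2 gained one and 43 changed sign, none of the last among called differences. The count of called milk genes in CD24highCD49fmed against basal cells was 3 after quantile normalisation, where calls over all features fell from 2189 to 1892. With 1 array left out the count was lowest without either array of that population, where calls over all features fell too. In CD24medCD49f-/low against basal cells it was 1 with array weights, where Lalba had an adjusted p of 0.0658 by limma. Calls over all features fell there from 1342 to 513. With 1 array left out the count was lowest without replicate 2 of that population, although calls over all features rose in that fit. For luminal against basal cells the count of called milk genes was 4 to 5 over the alternatives. For any difference among the 5 populations it was 3 after quantile normalisation or with the replicate block and 5 with array weights, and it fell as low as 1 with 1 array left out. The cause of these losses was not tested, beyond the fewer arrays in a fit that leaves 1 out.

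Between the luminal populations, setting array medians to 0 turned Csn3 to -0.22, Btn1a1 to -0.24 and Xdh to -0.17, and quantile normalisation turned them to -0.34, -0.22 and -0.37. Both scalings moved the median of all features in this comparison, by -0.376 and -0.337. Quantile normalisation turned CD24medCD49fmed minus CD24medCD49fhigh to 0.16 for Lalba and 0.034 for Btn1a1. With 1 array left out, a population then represented by 1 array is assumed to vary like the others, and the differences that changed sign had these ranges. For luminal minus basal they were -0.55 to 0.0088 for Csn1s2a and -0.32 to 0.14 for Csn2. For CD24medCD49f-/low minus basal they were -0.083 to 0.58 for Csn1s1. For CD24highCD49fmed minus CD24medCD49f-/low they were -0.13 to 0.44 for Csn3, -0.88 to 0.73 for Lalba, -0.32 to 0.60 for Btn1a1 and -0.37 to 0.78 for Xdh. For Thy-1+CD24medCD49fhigh minus Thy-1-CD24medCD49fhigh they were -1.11 to 0.69 for Csn1s1, -1.28 to 0.39 for Csn1s2a, -1.11 to 0.28 for Csn2, -0.87 to 0.57 for Csn3, -0.86 to 0.18 for Lalba, -0.55 to 0.37 for Btn1a1 and -0.11 to 0.67 for Xdh. For CD24medCD49fmed minus CD24medCD49fhigh they were -1.09 to 0.19 for Csn1s1, -0.74 to 0.22 for Csn1s2a, -1.07 to 0.30 for Csn2, -1.45 to 0.039 for Csn3, -0.91 to 0.65 for Lalba and -0.73 to 0.14 for Btn1a1.

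Whether replicate numbers pair the arrays was not settled. With 2 arrays per population the deviations mirror each other, so the same-numbered pairs are not independent. Of 16 such pairs, 4 had deviations that correlated over 0.1, in a range from -0.513 to 0.521. Those 4 were at 0.521 between the luminal populations and at 0.3 between the CD24medCD49fhigh populations. With the number as a replicate block, Csn2 in luminal minus basal cells was 0.16, Csn1s1 was called (0.97, adjusted p = 0.0314) and the F test of Xdh lost its call (adjusted p = 0.0566). The block gave 33 called features in place of 6 between the luminal populations, 9 in place of 2 for Thy-1 and 19 in place of 1 for CD24medCD49fmed, and called no further milk gene there.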
